A study of Mus musculus with 19 samples.

Results

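The 37 genes described here are a selection from the transcriptional response driven by ATF4, with enzymes of serine, asparagine and one-carbon metabolism and the tRNA synthetases that belong to it. They were taken as a list of symbols, and all 37 were found among the 35598 genes of the deposited libraries and among the 15123 genes that passed the filter on low counts. RNA had been sequenced from 19 libraries of primary myoblasts from mouse hind-limb muscle, which are precursor cells that divide, leave the cell cycle and fuse into multinucleate myotubes. The WT label covered 3 libraries of dividing myoblasts (24 h in growth medium), 3 of differentiated myotubes (48 h) and 4 of fused myotubes (72 h). The Glud1KO label, written KO-labelled below, covered 3, 2 and 4 libraries of the same stages. It stands for myoblasts deficient in Glud1, the mitochondrial glutamate dehydrogenase, and how they were made deficient, the strain and the age of the animals are not given in the sources used here. Nor is it said whether replicates came from separate animals, so p-values measure the spread between these libraries.

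Libraries held 16168131 to 30742634 estimated counts, and the common biological coefficient of variation was 4.03%. In counts scaled by TMM, Glud1 RNA did not separate the labels: the groups overlapped, and the log2 fold changes from myoblasts to fused myotubes were -0.02, -0.09 and -0.02. With an offset for effective transcript length they were -0.26, -0.31 and -0.34, and Glud1 then passed the test at each stage (edgeR adjusted p of 0.000709 or lower). With scaling by library size only it passed in differentiated myotubes (log2 fold change -0.14, edgeR adjusted p 0.0403). In TPM, an abundance scaled for transcript length and library depth, its mean was lower in KO-labelled libraries at each stage. The means were 169 TPM in WT against 139 in myoblasts, 83.8 against 61.7 in differentiated and 102 against 79.4 in fused myotubes. Names of the deposited files carry KO for either label, plus a T where the label is Glud1KO and with no word on what the T means, so a difference of genotype and one of treatment cannot be told apart. The 6 muscle lineage markers (Des, Myod1, Myog, Cdh15, Myf5, Pax7) summed to 1117 to 4959 TPM. Their sum was lower in KO-labelled libraries at each stage without overlap, at 1242 to 1324 TPM in WT against 1117 to 1137 in myoblasts, 4621 to 4959 against 4218 to 4521 in differentiated and 3669 to 3774 against 3482 to 3664 in fused myotubes, and its part in the differences between the labels was not tested. The 6 fibroblast markers (Pdgfra, Col1a1, Col3a1, Dpt, Ly6a, Dcn) summed to 149 to 168 TPM in WT and 129 to 153 TPM in KO-labelled myoblasts. Endothelial, macrophage, adipocyte and Schwann cell markers summed to at most 0.760, 2.19, 0.172 and 1.73 TPM.

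ATF4 is a transcription factor whose mRNA is translated more when initiation factor eIF2 is phosphorylated, which happens when amino acids are scarce, when unfolded protein accumulates in the endoplasmic reticulum (ER) or when mitochondria are impaired. Its own mRNA level is therefore only a partial measure of its activity. With C/EBP partners, ATF4 binds a composite site in front of genes for amino acid synthesis, amino acid uptake, tRNA charging and feedback on the response itself. In muscle, the response is known from fasting, mitochondrial disease and the secretion of the stress hormone GDF15.

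Promoter windows from RefSeq (GRCm38.p6, from 250 bases before to 50 after a transcription start) were available for 31 of the 37 genes. The C/EBP-ATF response element was searched on both strands as TGATGNAAN, where N is any base. It was found in 12 of these 31 genes (38.7%), and in 1215 of 27025 genes with a window (4.5%). The genes with a match were Atf3, Nupr1, Trib3, Chac1, Herpud1, Vldlr, Asns, Pycr1, Aars, Gars, Iars and Tars. A match is a description of the letters and says nothing of whether a factor is bound there. The 7 sites below are from genes whose calls between the labels were kept under every alternative tried, in myoblasts (the first 5) or in fused myotubes (Asns and Gars). Each is printed 5′ to 3′ on the strand of its gene, with the match in capitals. A match on the opposite strand reads as the reverse complement, ending in CATCA.
Atf3, chr1:191183411-191183469, minus strand: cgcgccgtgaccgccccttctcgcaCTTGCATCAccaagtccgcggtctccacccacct
Chac1, chr2:119351023-119351081, plus strand: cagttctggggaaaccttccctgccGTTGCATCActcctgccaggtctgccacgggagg
Herpud1, chr8:94386291-94386349, plus strand: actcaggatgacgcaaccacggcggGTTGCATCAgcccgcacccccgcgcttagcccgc
Trib3, chr2:152344029-152344057, minus strand: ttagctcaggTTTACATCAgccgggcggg
Vldlr, chr19:27216809-27216837, plus strand: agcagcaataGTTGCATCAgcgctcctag
Asns, chr6:7693214-7693242, minus strand: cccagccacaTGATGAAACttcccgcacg
Gars, chr6:55037945-55038000, plus strand: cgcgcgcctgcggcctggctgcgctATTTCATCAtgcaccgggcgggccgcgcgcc
Sites whose printed window would touch a GENCODE exon are shown with shorter flanks. The match began 111 bases before the RefSeq start in Atf3, 113 in Herpud1, 194 in Chac1, 201 in Vldlr, 31 in Gars and 23 in Asns, and 13 bases past it in Trib3. Of the 12 genes with a match, 9 were lower in KO-labelled myoblasts, against 5 of the 19 with a window and no match, where 6.69% of all genes tested were lower. In KO-labelled differentiated myotubes 6 and 11 were lower (14.1% of all genes), and in fused myotubes 4 and 5 were lower (6.72%) while 2 and 4 were higher (6.32%).

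**Figure D1:**
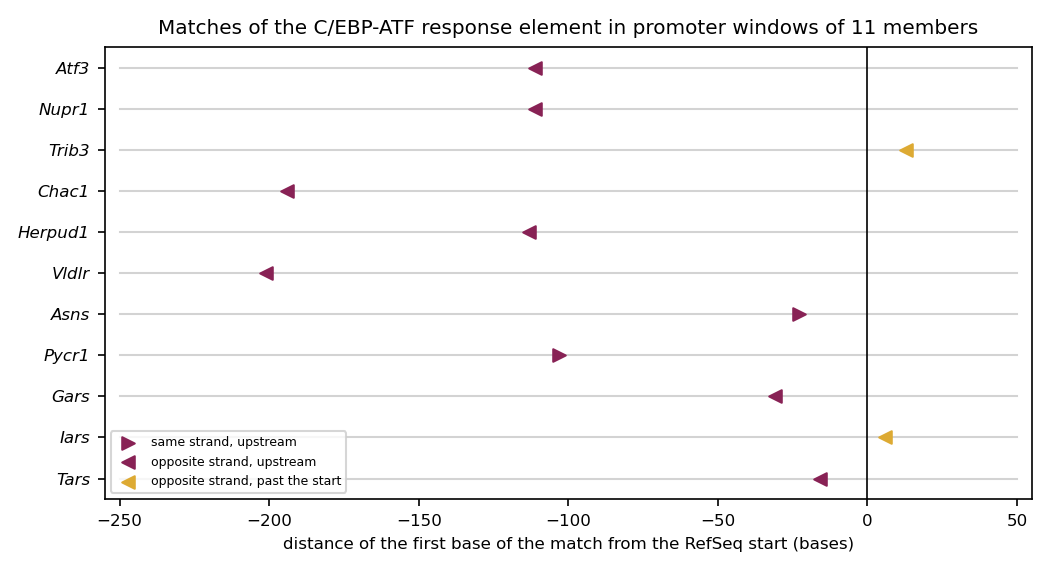
Positions of TGATGNAAN matches in promoter windows, as the distance in bases of the first base of the match from the RefSeq start (x axis) for 11 of the 12 genes with a match (y axis, Aars not drawn). Triangles point with the strand of the match, and 9 of the 11 matches drawn lie wholly upstream of the start (dark), while those of Trib3 and Iars lie past it (yellow).

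In WT cells the TPM of the 37 genes summed to its highest level in dividing myoblasts. The largest shares there were those of the tRNA synthetases with Xpot (1904 TPM) and the amino acid enzymes (1318 TPM). The summed level of the 37 genes was 4749 ± 90.2 TPM (SD, n = 3) in WT myoblasts, 2650 ± 49.4 (SD, n = 3) at 48 h and 2436 ± 24.3 (SD, n = 4) at 72 h. In KO-labelled libraries it was 4419 ± 31.7 (SD, n = 3), 2253 ± 7.48 (SD, n = 2) and 2490 ± 37.8 (SD, n = 4). The libraries of the 2 labels did not overlap in myoblasts (4645 to 4812 against 4399 to 4455) or in differentiated myotubes (2593 to 2682 against 2247 to 2258), and overlapped in fused myotubes. These gaps hold for TPM, and the sum was not taken from counts. By counts, 31 of the 37 had a log2 fold change below 0 in differentiated myotubes. Atf5, Asns, Psat1, Gars and Nars had higher mean counts there with the Glud1KO label but lower mean TPM. For Asns the means were 120.2 CPM (counts scaled by TMM) against 116.2 in WT, and 93.74 TPM against 104.7. In such bulk samples, fewer cells that express a gene and less of its RNA per cell cannot be told apart. From WT myoblasts to differentiated myotubes 31 of the 37 fell and 5 rose, where 85.0% of all genes tested were called (42.6% lower, 42.4% higher), and the median log2 fold change was -0.82 against 0.02 for all genes. From WT differentiated to fused myotubes 17 rose and 15 fell (75.1% of all genes called, 37.4% higher and 37.7% lower), and between WT myoblasts and fused myotubes 29 were lower and 6 higher (85.5%, with 43.4% lower and 42.2% higher).

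In KO-labelled libraries the fall was followed by a rise. Between their myoblasts and differentiated myotubes 31 genes fell and 6 rose (83.7% of all genes called, 42.5% lower and 41.3% higher). From KO-labelled differentiated to fused myotubes 24 rose and 8 fell (70.2% called, 35.8% higher and 34.4% lower), with a median log2 fold change of 0.35 against 0.02 for all genes. These comparisons share libraries with those of the labels below.

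Between the labels, the genes that were called were lower in KO-labelled myoblasts, lower with 1 exception in differentiated myotubes, and called in both directions in fused myotubes, within each role. In myoblasts 18 of the 37 were lower and none higher, with 34 below 0 and a median log2 fold change of -0.13, where all genes had 0.01 and 11.6% of them were called (6.69% lower, 4.86% higher). In differentiated myotubes 20 were lower and only Ppp1r15a was higher, with a median of -0.20 against -0.01, where 25.2% of all genes were called (14.1% lower, 11.0% higher). In fused myotubes 11 were lower and 7 higher, with a median of -0.07 against -0.01, where 13.0% of all genes were called (6.72% lower, 6.32% higher). The 2 groups of libraries did not overlap in 18 of the 18 called genes in myoblasts, 21 of 21 in differentiated and 15 of 18 in fused myotubes, where 11.3%, 24.8% and 10.4% of all genes were called without overlap. With the offset for effective length, 7 genes were called in myoblasts (3.88% of all genes) and 10 in fused myotubes (5.43%). Leaving out KO-labelled myoblast replicate 3 gave 9 (7.09% of all genes), leaving out WT fused replicate 1 gave 10 (9.2%) and leaving out KO-labelled fused replicate 2 gave 11 (9.47%).

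At all 3 stages, 9 genes were lower (Atf3, Ddit3, Trib3, Sesn2, Herpud1, Cth, Aldh1l2, Tars and Eprs), which is 24.3% of the 37, where 0.760% of all genes tested were. None was higher at all 3 stages, where 0.205% of all genes were. Of the 9, Atf3, Trib3 and Herpud1 kept their calls at each stage in every alternative tried. At 1 or more stages 31 of the 37 were called, against 37.7% of all genes. Atf4, Cebpb, Cebpg, Stc2, Pycr1 and Nars were called at none.

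**Figure D2:**
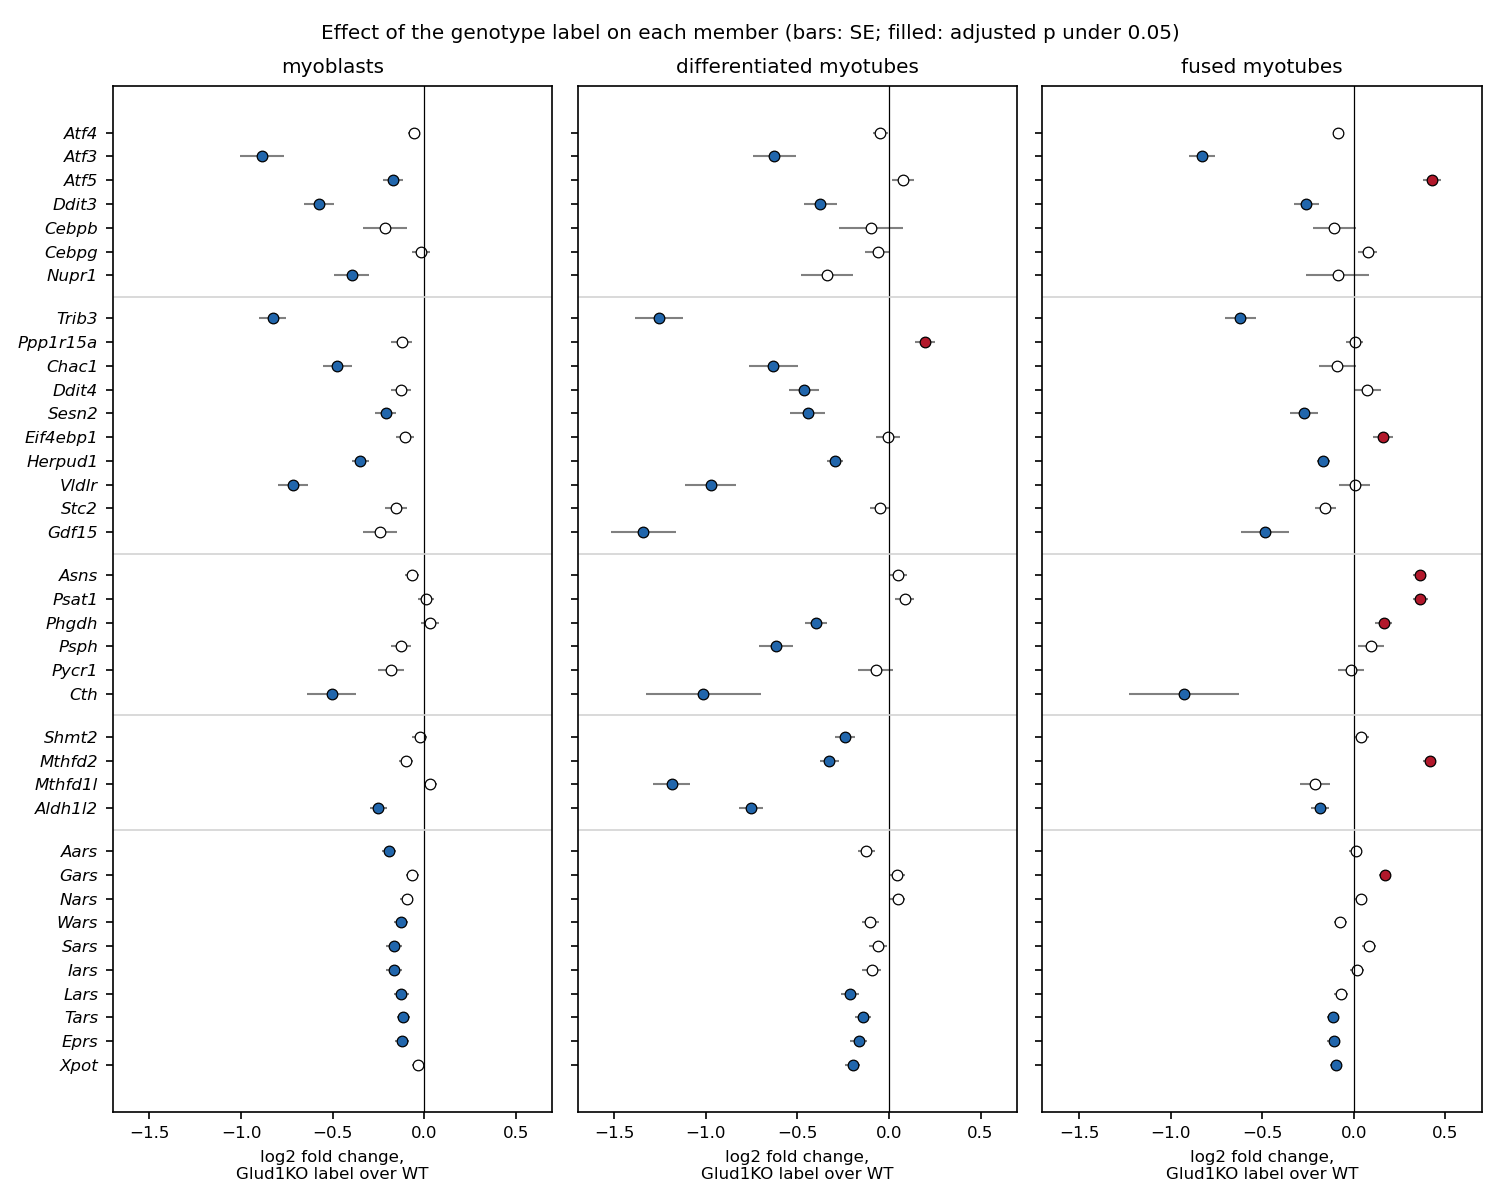
Log2 fold change of KO-labelled over WT libraries (x axis) for each of the 37 genes (y axis, grouped by role from top to bottom as transcription factors, feedback and stress effectors, amino acid synthesis, mitochondrial folate, tRNA synthetases with Xpot) at 3 stages. Bars are SE, and filled points (blue lower, red higher) have an adjusted p under 0.05. The points in myoblasts and differentiated myotubes lie mostly left of 0, and in fused myotubes 7 genes are red, among them Atf5, Asns, Psat1 and Mthfd2.

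Of the 7 transcription factors, Atf3 and Ddit3 were lower in KO-labelled libraries at each stage, and Atf4, Cebpb and Cebpg were called at none. Of all genes tested, 0.760% were lower at all 3 stages and 37.7% were called at 1 or more. Atf4 was at 364, 369 and 368 CPM (counts per library total, with totals adjusted by TMM) in WT myoblasts and at 361, 352 and 346 CPM in KO-labelled ones. At 48 h WT libraries had 313, 297 and 292 CPM and KO-labelled ones 292 and 290 CPM. At 72 h they had 216, 216, 227 and 217 CPM against 203, 208, 204 and 211 CPM. Every KO-labelled library was thus below every WT library of its stage, by little. The log2 fold changes were -0.06 ± 0.034 (SE), -0.05 ± 0.039 and -0.08 ± 0.031, with edgeR adjusted p of 0.338, 0.425 and 0.0771. The last passed the threshold in the DESeq2 test (adjusted p 0.033) and with an offset for length and GC content (edgeR adjusted p 0.00884), within 0.00884 to 0.716 over its alternatives. Along the WT course Atf4 fell by 0.29 and then by 0.46 on the log2 scale.

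Atf3, a stress-induced repressor and partner of ATF4, went the other way along the course. It rose by 0.97 ± 0.10 and then by 1.40 ± 0.079 (SE) on the log2 scale in WT cells. At each stage it was lower in KO-labelled cells. WT myoblasts had 4.57, 3.85 and 4.61 CPM and KO-labelled myoblasts 2.49, 2.00 and 2.59 CPM. Differentiated myotubes had 8.54, 8.62 and 8.59 CPM against 5.45 and 5.66 CPM, and fused myotubes 21.9, 21.8, 21.3 and 25.2 CPM against 12.1, 13.9, 12.3 and 12.7 CPM. The groups were apart at each stage, and the log2 fold changes were -0.89 ± 0.12 (SE, edgeR adjusted p 8.61e-06), -0.63 ± 0.12 (edgeR adjusted p 0.000229) and -0.83 ± 0.072 (edgeR adjusted p 4.06e-09).

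Ddit3 encodes CHOP, the factor linked to cell death under prolonged ER stress. WT myoblasts had 14.2, 14.7 and 12.9 CPM and KO-labelled myoblasts 9.57, 9.42 and 8.97 CPM. In differentiated myotubes the values were 18.6, 16.9 and 17.3 CPM against 13.7 and 13.4 CPM, and in fused myotubes 22.9, 20.4, 21.8 and 18.8 CPM against 16.5, 16.1, 19.3 and 17.8 CPM. The groups overlapped at fusion, where 1 KO-labelled library exceeded the lowest WT one. The log2 fold changes were -0.57 ± 0.080 (SE), -0.38 ± 0.091 and -0.26 ± 0.068, with edgeR adjusted p of 1.26e-05, 0.00296 and 0.0114. The call at fusion was lost under the effective-length offset (edgeR adjusted p 0.2) and without WT replicate 1 (0.0677) or KO-labelled replicate 2 (0.0555). Exons of Ddit3 overlap those of Mars on the other strand, and the sources used here do not give the strand setting of the counting. The same uncertainty holds for Cebpb (Tmem189), Cebpg (Gm45095), Ppp1r15a (Tulp2), Psph (Cct6a), Shmt2 (Ndufa4l2) and Aldh1l2 (D10Wsu102e), and Aars shares exon sequence with Exosc6 on its own strand.

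Atf5, a factor under the same translational control as ATF4 and known for its role in the mitochondrial stress response, changed direction. Its WT myoblast libraries had 142, 132 and 133 CPM and the KO-labelled ones 119, 126 and 116 CPM (log2 fold change -0.17 ± 0.053, SE, edgeR adjusted p 0.0349). That call was lost in 5 of 15 alternatives, with edgeR adjusted p of up to 0.15, among them leaving out WT replicate 1 or 3 and KO-labelled replicate 1 or 3. Fused WT libraries had 102, 107, 116 and 123 CPM and fused KO-labelled ones 154, 158, 147 and 143 CPM, a change of 0.43 ± 0.048 on the log2 scale (SE, edgeR adjusted p 4.2e-07) that was kept in every alternative. Exons of Atf5 overlap those of Nup62 and Il4i1 on the other strand. Of the other factors, Nupr1, a small chromatin protein induced by stress, was lower in myoblasts (18.3 to 19.4 CPM in WT, 13.5 to 14.9 CPM in KO-labelled libraries), a call lost under the effective-length offset (edgeR adjusted p 0.0694) at a log2 fold change of -0.41 against -0.40. The C/EBP family members Cebpb and Cebpg, which pair with ATF4, were called at no stage, with log2 fold changes of -0.21 to 0.07.

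**Figure D3:**
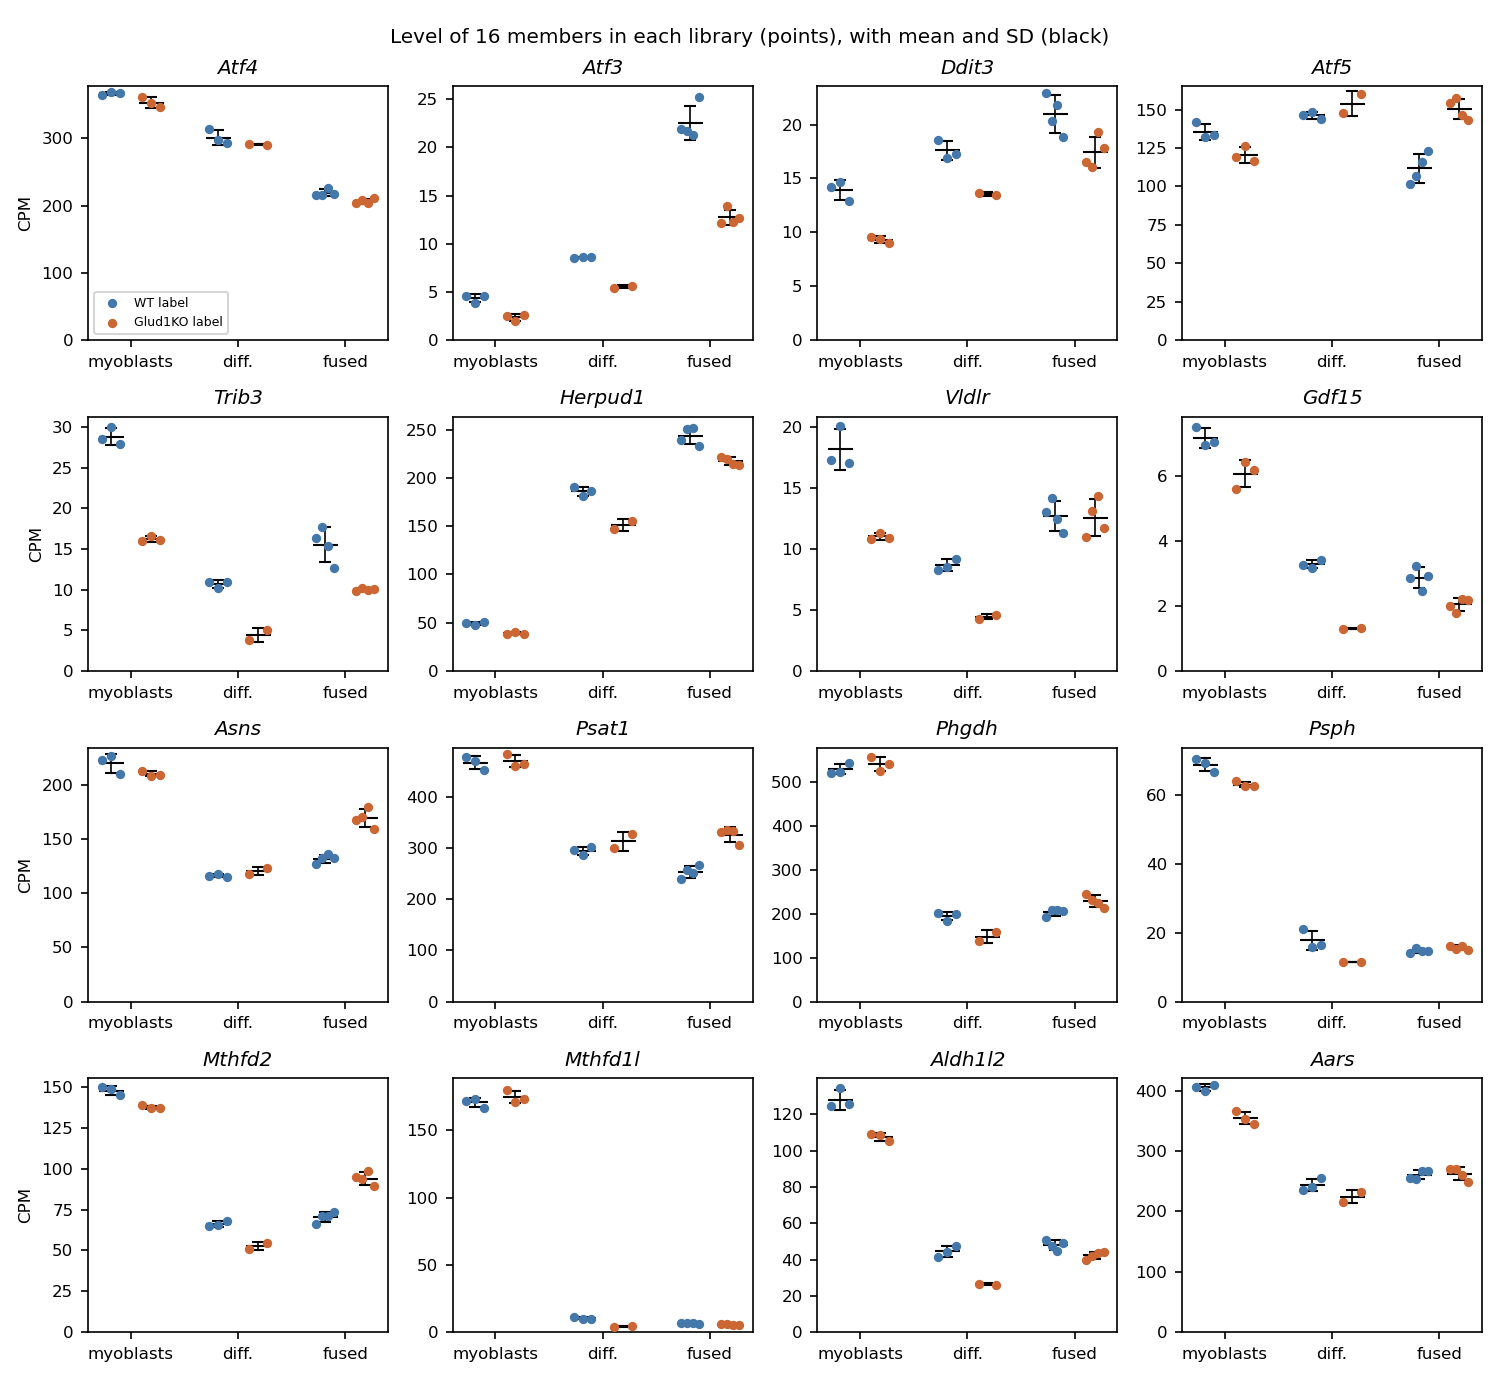
CPM of 16 of the 37 genes (y axes, from 0) in each library (points) at 3 stages (x axes) for the WT label (blue) and the Glud1KO label (orange), with the mean and SD in black. Atf4 differs little between the labels, Atf3, Trib3 and Herpud1 are lower in KO-labelled libraries at each stage, and Atf5, Asns, Psat1 and Mthfd2 are higher in KO-labelled fused myotubes.

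Of the 10 feedback and stress effectors, 5 were lower in KO-labelled myoblasts and none higher, 7 were lower and 1 higher in differentiated myotubes, and 4 (Trib3, Sesn2, Herpud1 and Gdf15) were lower and 1 higher in fused myotubes. The shares of all genes called lower were 6.69%, 14.1% and 6.72%, and those called higher 4.86%, 11.0% and 6.32%. Trib3 encodes a pseudokinase that ATF4 and CHOP induce and that feeds back on both. Myoblasts of the WT label had 28.6, 29.95 and 27.9 CPM and those of the Glud1KO label 15.9, 16.6 and 16.1 CPM. Differentiated myotubes had 11.0, 10.2 and 10.9 CPM against 3.85 and 5.08 CPM, and fused myotubes 16.4, 17.8, 15.4 and 12.7 CPM against 9.79, 10.2, 9.97 and 10.1 CPM. No KO-labelled library reached a WT library of its stage. The log2 fold changes were -0.83 ± 0.074 (SE, edgeR adjusted p 7.82e-09), -1.26 ± 0.13 (edgeR adjusted p 4.83e-08) and -0.62 ± 0.084 (edgeR adjusted p 8.08e-06).

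Vldlr, the receptor for very low density lipoprotein and a target of PERK and ATF4, was lower until fusion. Myoblasts had 17.3, 20.01 and 17.0 CPM with the WT label and 10.8, 11.3 and 10.9 CPM with the Glud1KO label. Differentiated myotubes had 8.25, 8.53 and 9.19 CPM against 4.28 and 4.56 CPM. The log2 fold changes were -0.72 ± 0.084 (SE, edgeR adjusted p 9.27e-07) and -0.97 ± 0.14 (edgeR adjusted p 5.24e-06). In fused myotubes the groups spanned the same range, 11.3 to 14.2 CPM in WT and 10.98 to 14.4 CPM in KO-labelled ones (log2 fold change 0.01 ± 0.084, SE, edgeR adjusted p 0.986).

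Gdf15, the secreted stress hormone, rested on few counts, 24 to 214 estimated counts a library. At 48 h its WT libraries had 3.27, 3.18 and 3.42 CPM and the KO-labelled pair 1.28 and 1.31 CPM, so that it fell by 1.34 ± 0.18 on the log2 scale (SE, edgeR adjusted p 1.92e-06). At 72 h the values were 2.88, 3.24, 2.47 and 2.93 CPM against 2.01, 1.78, 2.21 and 2.198 CPM (-0.48 ± 0.13, edgeR adjusted p 0.0162). The latter call was lost without WT replicate 2 (edgeR adjusted p 0.0515) or KO-labelled replicate 2 (0.0782). In myoblasts Gdf15 was at 6.96 to 7.52 CPM in WT and 5.62 to 6.45 CPM in KO-labelled libraries, which did not pass the test (edgeR adjusted p 0.0972).

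Sesn2, a leucine-sensing inhibitor of mTORC1, had 72.3, 73.1 and 71.1 CPM in WT myoblasts and 68.1, 59.0 and 59.8 CPM in KO-labelled ones. Values were 21.3, 17.5 and 22.1 CPM against 15.7 and 14.3 CPM in differentiated and 17.5, 18.02, 16.7 and 17.5 CPM against 14.7, 15.2, 12.9 and 15.4 CPM in fused myotubes. The groups were apart at each stage, with log2 fold changes of -0.21 ± 0.058 (SE, edgeR adjusted p 0.0175), -0.44 ± 0.095 (edgeR adjusted p 0.000877) and -0.27 ± 0.078 (edgeR adjusted p 0.02). The myoblast call was lost without WT replicate 2, KO-labelled replicate 2 or KO-labelled replicate 3 (edgeR adjusted p 0.0579, 0.104 and 0.0963), and the call at fusion without KO-labelled replicate 3 (0.116). Both were lost under the effective-length offset (edgeR adjusted p 0.166 and 0.0582) at unchanged log2 fold changes of -0.21 and -0.27.

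Herpud1, a component of ER-associated protein degradation, rose along the WT course from 49.5 ± 1.47 CPM (SD, n = 3) in myoblasts to 244 ± 8.96 CPM (SD, n = 4) in fused myotubes. In KO-labelled cells it was lower by 0.35, 0.30 and 0.17 on the log2 scale at the 3 stages. Chac1, which degrades glutathione, was at 33.6 to 34.0 CPM in WT and 24.2 to 24.6 CPM in KO-labelled myoblasts (log2 fold change -0.47 ± 0.079, SE). Differentiated WT myotubes had 11.4 to 11.8 CPM, and the KO-labelled pair 5.67 and 9.23 CPM. The call there was lost without KO-labelled replicate 1 (edgeR adjusted p 0.101, log2 fold change -0.32 instead of -0.63).

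Ppp1r15a, the stress-induced subunit that directs a phosphatase to eIF2, was the only one of the 37 that was higher in KO-labelled differentiated myotubes. There its WT libraries had 87.5, 85.6 and 88.1 CPM and the KO-labelled ones 101 and 98.7 CPM (0.20 ± 0.054 on the log2 scale, SE, edgeR adjusted p 0.00772). That call was lost without KO-labelled replicate 1 (edgeR adjusted p 0.0755), with scaling by library size only (0.069) and with the effective-length offset (0.273). At the other 2 stages its groups overlapped. Ddit4, an inhibitor of mTORC1, was lower in differentiated myotubes only (17.7 to 21.9 CPM in WT, 14.0 and 14.7 CPM in KO-labelled libraries). Eif4ebp1, a repressor of cap-dependent translation, was higher in fused myotubes by 0.16 on the log2 scale (edgeR adjusted p 0.0492), a call lost in 10 of 17 alternatives, and 53.2% to 68.9% of its counts in a library fell on a transcript annotated as not protein-coding. Stc2, a secreted glycoprotein, peaked in differentiated myotubes of both labels (114 to 128 CPM in WT, 113 and 124 CPM in KO-labelled libraries) and was called at no stage.

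Of the 6 enzymes of amino acid synthesis, only Cth passed the test in myoblasts, where it was lower. Phgdh, Psph and Cth were lower in KO-labelled differentiated myotubes, and Asns, Psat1 and Phgdh were higher and Cth lower in KO-labelled fused myotubes. The shares of all genes called lower were 6.69%, 14.1% and 6.72% at the 3 stages, and those called higher 4.86%, 11.0% and 6.32%. Phgdh, Psat1 and Psph catalyse the 3 steps from 3-phosphoglycerate to serine, and the amino group that Psat1 adds comes from glutamate. Phgdh had 521, 523 and 542 CPM in WT myoblasts and 557, 525 and 541 CPM in KO-labelled ones. Differentiated myotubes had 202, 184 and 199 CPM against 137 and 158 CPM, and fused myotubes 192, 209, 209 and 206 CPM against 246, 231, 223 and 214 CPM. KO-labelled libraries thus overlapped the WT range in myoblasts, lay below it in differentiated myotubes and above it in fused ones. The log2 fold changes were 0.03 ± 0.049 (SE, edgeR adjusted p 0.744), -0.40 ± 0.060 (edgeR adjusted p 1.39e-05) and 0.16 ± 0.045 (edgeR adjusted p 0.0163). The call at fusion was lost without WT replicate 1 (edgeR adjusted p 0.079), without KO-labelled replicate 1 (0.0846) and under the effective-length offset (0.159).

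Psat1 had 477, 470 and 452 CPM in WT myoblasts and 484, 461 and 465 CPM in KO-labelled ones. Differentiated myotubes had 296, 287 and 302 CPM against 299.5 and 327 CPM, where the groups overlapped. Fused myotubes had 239.5, 257, 251 and 268 CPM against 332, 335, 334 and 306 CPM, a rise of 0.36 ± 0.039 on the log2 scale (SE, edgeR adjusted p 2.44e-07). Psph, the last enzyme of the pathway, was not called in myoblasts (edgeR adjusted p 0.125). At 48 h it had 16.02 to 21.1 CPM in WT and 11.55 and 11.58 CPM in KO-labelled libraries (log2 fold change -0.61 ± 0.093, SE, edgeR adjusted p 1.38e-05), and in fused myotubes its groups overlapped.

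Asns, which makes asparagine from aspartate and glutamine, had 223, 227 and 209.9 CPM in WT myoblasts and 213, 208 and 209 CPM in KO-labelled ones. Differentiated myotubes had 116, 118 and 115 CPM against 118 and 123 CPM. Fused myotubes had 127, 132, 136 and 132 CPM against 167, 169.9, 179 and 159 CPM. The groups were apart at fusion, where Asns was higher by 0.36 ± 0.036 on the log2 scale (SE, edgeR adjusted p 7.26e-08), while in myoblasts and differentiated myotubes the values were -0.07 ± 0.039 and 0.05 ± 0.048 and not called (in myoblasts Asns was called with the length and GC offset only, edgeR adjusted p 0.0324). Asns and Psat1 kept their calls at fusion in every alternative.

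Cth, the enzyme that releases cysteine from cystathionine, was lower at each stage but at low counts (6 to 234 estimated counts a library). Myoblasts had 7.42, 7.69 and 7.82 CPM with the WT and 5.36, 5.53 and 5.27 CPM with the Glud1KO label. The values were 1.19, 1.83 and 1.34 CPM against 0.856 and 0.577 CPM in differentiated myotubes. In fused myotubes the groups overlapped, at 0.822, 1.59, 0.555 and 0.824 CPM against 0.627, 0.334, 0.426 and 0.599 CPM. The log2 fold changes were -0.51 ± 0.13 (SE, edgeR adjusted p 0.0137), -1.01 ± 0.31 (edgeR adjusted p 0.0176) and -0.93 ± 0.30 (edgeR adjusted p 0.0413). These calls were lost in 4 of 15, 3 of 14 and 8 of 17 alternatives, with edgeR adjusted p of up to 0.398, 0.331 and 0.706. Under the effective-length offset the log2 fold changes were -0.40, -0.63 and -0.32. In differentiated myotubes, leaving out WT replicate 2 (edgeR adjusted p 0.0747) or KO-labelled replicate 2 (0.204) ended the call. Pycr1, which makes proline, was called at no stage.

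The mitochondrial folate enzymes were all lower in KO-labelled differentiated myotubes. Among the roles of the listed genes, theirs had the lowest median log2 fold change from WT myoblasts to fused myotubes (-1.59). Single genes of other roles, such as Cth (7.64 to 0.947 CPM) and Psph (69.0 to 14.8 CPM), fell further in the WT mean than Mthfd2 (147.5 to 70.6 CPM). Shmt2 takes a carbon unit from serine, Mthfd2 and Mthfd1l carry it on to formate, and Aldh1l2 oxidises it to CO2. Their summed level was 509.8 ± 7.11 TPM (SD, n = 3) in WT myoblasts and 487 ± 4.51 (SD, n = 3) in the KO-labelled ones, and 126.5 ± 4.95 (SD, n = 3) against 89.4 ± 5.03 (SD, n = 2) in differentiated myotubes. In fused myotubes the order was the other way, 127.5 ± 3.47 (SD, n = 4) with the WT label and 142 ± 1.89 (SD, n = 4) with the Glud1KO label, with no overlap at any stage. In TPM, of the 4 only Mthfd2 had the higher mean with the Glud1KO label in fused myotubes (68.0 against 51.7), while Shmt2 (58.7 against 59.1), Mthfd1l (2.44 against 3.20) and Aldh1l2 (12.7 against 13.5) did not. In CPM the mean of Shmt2 was also higher there (116 against 113), and not called.

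Mthfd1l had the steepest course. Myoblasts had 167 to 174 CPM in WT and 171 to 180.0 CPM in KO-labelled libraries, followed by 11.2, 9.88 and 10.1 CPM in WT and 4.23 and 4.88 CPM in KO-labelled differentiated myotubes. The log2 fold change between the labels there was -1.19 ± 0.10 (SE, edgeR adjusted p 1.18e-09). In fused myotubes it was at 6.47 to 7.08 CPM in WT and 5.20 to 6.40 CPM in KO-labelled libraries, not called (edgeR adjusted p 0.116). So in WT cells Mthfd1l fell further between 48 h and 72 h, by 0.60 on the log2 scale, while in KO-labelled cells it rose by 0.37.

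Mthfd2 had 149.5, 148.5 and 145 CPM in WT myoblasts and 139, 137 and 137 CPM in KO-labelled ones, a difference that did not pass the test (edgeR adjusted p 0.0883) but did with DESeq2 size factors (edgeR adjusted p 0.0431), in the DESeq2 test (0.0306), with only the libraries compared (0.0124) and with the length and GC offset (0.00616). Differentiated myotubes had 64.9, 65.3 and 68.2 CPM against 51.1 and 54.5 CPM, and Mthfd2 fell by 0.33 ± 0.051 on the log2 scale (SE, edgeR adjusted p 2.3e-05). Fused myotubes had 66.4, 71.3, 70.8 and 73.8 CPM against 94.6, 93.6, 98.2 and 89.1 CPM, a rise of 0.41 ± 0.038 (edgeR adjusted p 1.06e-08). Both calls were kept in every alternative. Phgdh and Mthfd2 were the 2 genes that were lower in KO-labelled differentiated myotubes and higher in fused ones, a pattern of 0.813% of all genes tested.

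Shmt2 was lower only in differentiated myotubes, at 85.9 to 94.3 CPM in WT and 70.9 and 79.4 CPM in KO-labelled libraries (log2 fold change -0.24 ± 0.054, SE). Its call was lost without KO-labelled replicate 1 (edgeR adjusted p 0.0983, log2 fold change -0.16). Aldh1l2 was lower at each stage, by 0.25, 0.76 and 0.18 on the log2 scale, and its groups never overlapped. Its calls in myoblasts and fused myotubes were lost under the effective-length offset (edgeR adjusted p 0.128 at a log2 fold change of -0.27, and 0.733 at -0.07), and that at fusion also without WT or KO-labelled replicate 1.

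The tRNA synthetases, which charge tRNAs with their amino acids, and the tRNA exporter Xpot had small changes. Their summed level was 1904 ± 52.8 TPM (SD, n = 3) in WT myoblasts and 1756 ± 14.7 (SD, n = 3) in KO-labelled ones, 1141 ± 34.1 (SD, n = 3) against 998.6 ± 30.2 (SD, n = 2) in differentiated and 1140 ± 18.5 (SD, n = 4) against 1128 ± 21.1 (SD, n = 4) in fused myotubes. By counts, 8 of the 10 genes had a log2 fold change below 0 in differentiated myotubes. Gars and Nars had higher mean CPM there (258 against 250 and 383 against 370 in WT) but lower mean TPM (169 against 180 and 264 against 287). In myoblasts 7 of these 10 genes were lower (Aars, Wars, Sars, Iars, Lars, Tars, Eprs), by 0.11 to 0.19 on the log2 scale, where 6.69% of all genes were lower. Aars, for alanine, had 399.5 to 409.7 CPM in WT myoblasts and 345 to 366 CPM in KO-labelled ones (log2 fold change -0.19 ± 0.040, SE, edgeR adjusted p 0.00185), and was the one of the 7 to keep its call in every alternative. The other 6 lost theirs under the effective-length offset and also without KO-labelled replicate 3. As said above, Aars shares exon sequence with Exosc6 on its own strand. In differentiated myotubes Lars, Tars, Eprs and Xpot were lower, by 0.14 to 0.21 (14.1% of all genes lower). The calls of Lars, Tars and Eprs there were lost without KO-labelled replicate 1, at log2 fold changes of -0.17, -0.084 and -0.135. Tars and Eprs also lost theirs with only the libraries compared, with the length and GC offset and without WT replicate 3. Lars and Tars lost theirs under the effective-length offset too, and so did Xpot (edgeR adjusted p 0.954, log2 fold change -0.01). In fused myotubes Tars, Eprs and Xpot were lower, by 0.10 to 0.11 (6.72% of all genes lower, 6.32% higher), calls lost in 7, 8 and 11 of 17 alternatives. Gars, for glycine, was higher there (279.5 to 300.2 CPM in WT, 313 to 337 CPM with the Glud1KO label, 0.17 ± 0.033 on the log2 scale, SE, edgeR adjusted p 0.000796).

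**Figure D4:**
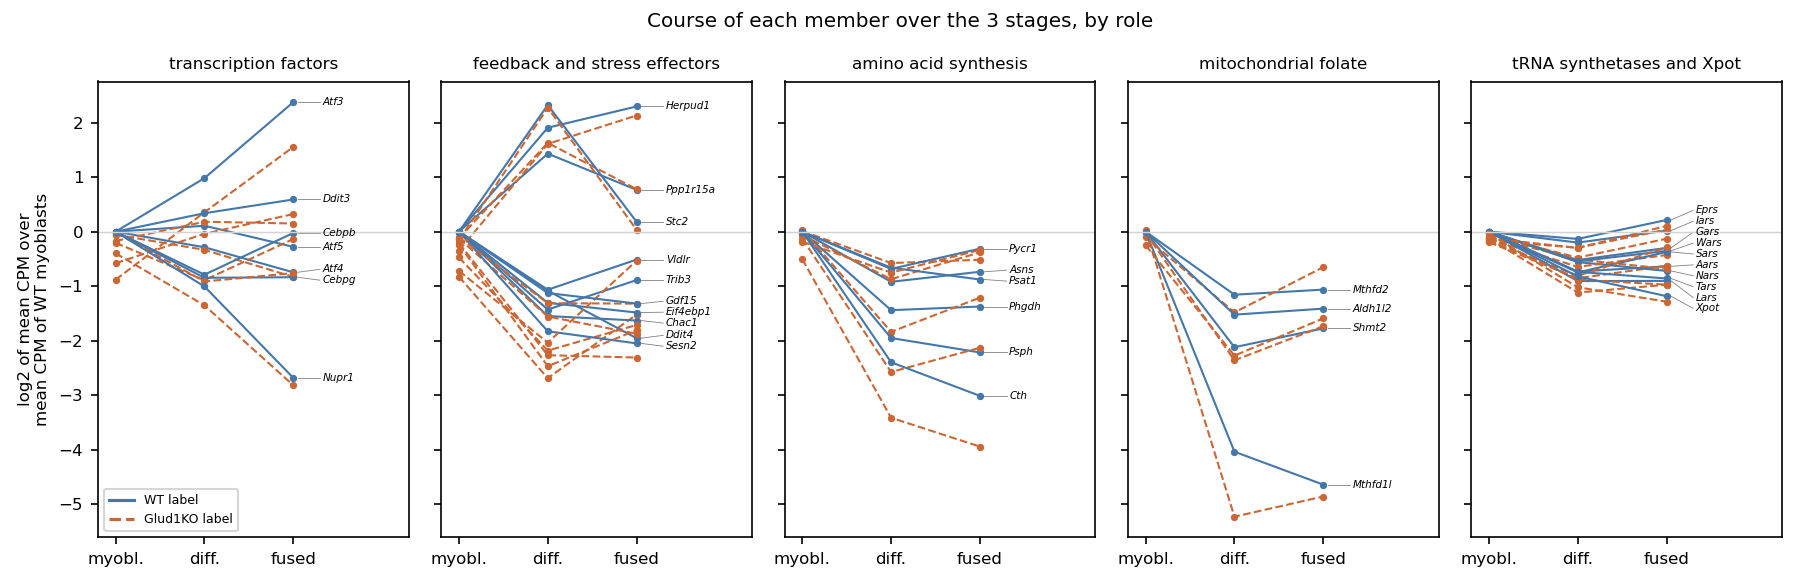
Course of the 37 genes over the 3 stages (x axes), as the log2 of mean CPM over the mean CPM of WT myoblasts (y axis), in panels by role, for WT (solid blue) and KO-labelled (dashed orange) libraries. Mthfd1l falls furthest, Atf3 and Herpud1 rise, and between the second and the third stage Mthfd1l falls in WT (solid) and rises in KO-labelled (dashed) libraries, while the other folate enzymes rise in both.

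The effect of the label itself differed between stages for many of these genes. From myoblasts to differentiated myotubes the difference was negative in 9 genes and positive in 2, where 19.1% of all genes were called (11.3% negative, 7.78% positive). With the effective-length offset this difference was called in 5 genes, all negative, and in 9.6% of all genes. Among the called genes, Gdf15 (-1.10 ± 0.20, SE, edgeR adjusted p 0.00026), Mthfd1l (-1.22 ± 0.11, edgeR adjusted p 4.38e-09), Aldh1l2, Psph, Phgdh and Ddit4 had the largest negative values, and Atf5 and Ppp1r15a the positive ones. All 4 folate enzymes were among the 9. From differentiated to fused myotubes it was positive in 14 genes and negative in none, where 14.8% of all genes were called (8.27% positive, 6.53% negative). These were the 4 folate enzymes, 4 of the 6 amino acid enzymes (Asns, Psat1, Phgdh, Psph), 5 of the 10 effectors (Trib3, Chac1, Ddit4, Vldlr, Gdf15) and Atf5, and none of the 10 tRNA genes. Values were largest for Vldlr (0.98 ± 0.16, SE, edgeR adjusted p 0.000111), Mthfd1l (0.97 ± 0.13, edgeR adjusted p 8.64e-06), Gdf15 (0.86 ± 0.22) and Mthfd2 (0.74 ± 0.063, edgeR adjusted p 7.52e-09). Both differences use the same 5 libraries of differentiated myotubes, of which 2 are KO-labelled, so they are not independent. Without KO-labelled replicate 1 the later difference was called in 9 genes and in 10% of all genes.

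Markers of dividing cells moved with the results in differentiated myotubes. Mki67 and Top2a summed to 4.07 to 5.36 TPM in WT and 0.570 to 0.614 TPM in KO-labelled differentiated myotubes, and to 220 to 229 against 239 to 241 TPM in myoblasts. The 6 fibroblast markers summed to 12.2 to 13.0 TPM in WT and 5.40 to 7.09 TPM in KO-labelled differentiated myotubes, with Dpt at 0 in all libraries. Their part in the lower level of Phgdh, Psph and the folate enzymes at this stage was not tested. In fused myotubes the cycling markers summed to at most 0.644 TPM and the fibroblast markers to at most 4.15 TPM in either label.

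Related genes outside the list were counted for each stage. Of 9 amino acid transporters known as ATF4 targets, 7 were lower in KO-labelled myoblasts, 4 in differentiated and 1 in fused myotubes, and none was higher. For these and the lists that follow, the shares of all genes called lower were 6.69%, 14.1% and 6.72% at the 3 stages, and those called higher 4.86%, 11.0% and 6.32%. The cystine transporter Slc7a11 was lower at each stage, by 0.27 ± 0.084 (SE), 1.32 ± 0.24 and 0.81 ± 0.18 on the log2 scale, and the leucine transporter Slc7a5 in myoblasts only (387 to 403 CPM with the WT and 311 to 338 CPM with the Glud1KO label). Of 15 ER chaperones and genes of the other unfolded protein branches, 2 were lower in myoblasts and 12 in differentiated and again 12 in fused myotubes, with median log2 fold changes of 0.01, -0.44 and -0.24. Hspa5, the main ER chaperone, had 681, 646 and 668 CPM in WT differentiated myotubes and 401 and 436 CPM in KO-labelled ones.

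Of the 12 remaining cytosolic tRNA synthetases tested, 1 was higher and none lower in KO-labelled myoblasts, 1 was lower in differentiated and 2 were higher in fused myotubes. Of 17 mitochondrial synthetases 1 was higher at each stage and none lower. Among 11 genes for the eIF2 kinases, eIF2 and its exchange factor, 1 was higher in myoblasts and 3 were higher and 1 lower in differentiated myotubes. Of 7 genes of the mitochondrial stress relay and its chaperones, 2 were higher in myoblasts, 2 were lower in differentiated and 1 was lower in fused myotubes. Of 9 other genes of proline, glutamate and transamination tested, 1 was higher and 3 lower in myoblasts, 1 higher and 2 lower in differentiated and 1 higher and 1 lower in fused myotubes, with median log2 fold changes of 0.01, 0.01 and -0.03. Among them, Aldh18a1, chosen after its values were seen, which starts proline synthesis from glutamate, was lower in KO-labelled myoblasts and differentiated myotubes, by 0.13 and 0.41 on the log2 scale, and higher in fused ones, by 0.18 ± 0.040 (SE, edgeR adjusted p 0.00351).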

How the data were processed

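RNA was measured in 19 libraries of 6 groups, with samples grouped by their labels. The authors deposited, per the file headers, an estimated count and a TPM value for each of 121843 transcripts, with the transcript's length and effective length. Per the submitters' processing notes, bcl2fastq 2.20, fastp 0.20.0, kallisto 0.46.1 and edgeR 3.36 were used with build GRCm38.p6, and the annotation release is not given in the sources used here. Reads that match several transcripts are shared among them by such a tool, so counts of overlapping genes can be exchanged. Estimated counts were summed to genes by GENCODE M21, which matched 121018 transcripts. The 825 others held 0.255% to 0.507% of a library's counts. Sums were rounded and tested with edgeR 4.0.16 (R 4.3.3) in 1 quasi-likelihood fit of all libraries, after filterByExpr and TMM scaling, with Benjamini-Hochberg adjustment over 15123 genes. A call is an adjusted p under 0.05. The fit gave 10 comparisons, and only rows of the listed genes are printed. TPM values served for summed levels and for some means of single genes, and neither were tested. The code of the fit was also run on simulated counts, and the outcome is not given here.

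The genes, lists and alternatives were chosen with earlier results of these data known. Values in every library are given for Atf4, Ddit3, Trib3, Asns, Psat1 and Phgdh, and for up to 4 genes in each direction and stage with the largest change among those called, without overlap and with a mean of at least 1 CPM in the higher group. Other genes are given by range, and genes outside the list come from fixed context and marker lists. The symbols Mars1 and Pycr3 of those lists had no match, and both lists also hold Mars or Pycrl. Alternatives were other scalings, filters and offsets, DESeq2 1.42.0, a replicate block and leaving out each library in turn. Leaving out a library of the pair in KO-labelled differentiated myotubes leaves 1, which is assumed to vary like the other groups. The results of 1 context list and the promoter site of 1 gene are not reported here.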

Additional observations from a re-analysis of the deposited data

Results flagged for a closer look

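Among the 74 sets of 4 fused libraries (37 genes, 2 labels), 5 held a library far from the other 3, where chance gives about 1 in 20. These were Atf4 at 227 CPM and Atf3 at 25.2 CPM in WT, and Psat1 at 306 CPM, Lars at 131 CPM and Tars at 107 CPM in KO-labelled fused myotubes.

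The effect of the label differed by the edgeR test of the difference between stages. Differentiated myotubes minus myoblasts, on the log2 scale, it was 0.245 for Atf5, 0.321 for Ppp1r15a, -0.339 for Ddit4, -1.1 for Gdf15, -0.43 for Phgdh, -0.488 for Psph, -0.219 for Shmt2, -0.225 for Mthfd2, -1.22 for Mthfd1l, -0.506 for Aldh1l2 and -0.163 for Xpot. Fused minus differentiated myotubes, it was 0.353 for Atf5, 0.638 for Trib3, 0.542 for Chac1, 0.539 for Ddit4, 0.979 for Vldlr, 0.857 for Gdf15, 0.309 for Asns, 0.278 for Psat1, 0.561 for Phgdh, 0.708 for Psph, 0.282 for Shmt2, 0.74 for Mthfd2, 0.973 for Mthfd1l and 0.572 for Aldh1l2.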

How the results depend on the processing

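Single-gene values were recomputed for 26, 25 and 22 of the listed genes in the comparisons between the labels at the 3 stages, of which 981 stayed on their side of the threshold, 126 lost and 7 gained a call, and none reversed. Over all 37 genes, 25 were called in myoblasts with only the libraries compared and 24 with the length and GC offset. Of the genes called between the labels, 7 of 18 in myoblasts, 13 of 21 in differentiated and 8 of 18 in fused myotubes kept their call in every alternative. The offset for effective length moved the counts to 7 in myoblasts, 10 in fused myotubes (5 higher, 5 lower) and 5 for the difference of the effect between myoblasts and differentiated myotubes, while the shares of all genes called moved from 11.6%, 13.0% and 19.1% to 3.88%, 5.43% and 9.6%, and the cause was not tested. For that difference the share of positive calls was 18.2%, and 30.0% with DESeq2 size factors, 30.8% in the DESeq2 test, 35.7% with the length and GC offset and 0% with the effective-length offset. Leaving out 1 library at a time gave 9 to 15 called genes in myoblasts, 15 to 23 in differentiated and 10 to 16 in fused myotubes, and 8 to 13 and 9 to 15 for the earlier and the later difference of the effect. Along the course it gave 36 to 37, 28 to 31 and 35 in WT and 36 to 37 and 28 to 31 in KO-labelled cells. Within a stage, WT and KO-labelled libraries of the same replicate number had correlations of -0.0574 to 0.0759 in their deviations from the group mean. With 2 KO-labelled libraries of differentiated myotubes, the values there come as opposites (0.0759 and -0.0759) and say little about pairing. Pairing across stages was not examined. The replicate block gave 16, 21 and 16 called genes at the 3 stages. Scaling by library size only moved the median of all genes to -0.23 between WT myoblasts and differentiated myotubes, -0.33 to fused myotubes and -0.31 between KO-labelled myoblasts and differentiated myotubes. Cth and Gdf15 rested on as few as 6 and 24 estimated counts in a library.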

Other observations

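The deposited files count transcripts, and for some of the genes the balance of transcripts moved along the course. Vldlr had 49.7% ± 4.76 (SD, n = 3) of its counts on the long coding transcript ENSMUST00000167487 in WT myoblasts, 65.3% ± 5.66 (SD, n = 3) in differentiated and 78.4% ± 8.45 (SD, n = 4) in fused myotubes. The transcript ENSMUST00000025866, annotated as a target of nonsense-mediated decay, took 41.3% ± 5.74 (SD, n = 3), 19.3% ± 6.74 (SD, n = 3) and 14.7% ± 11.7 (SD, n = 4). KO-labelled libraries had a like course, with 47.5% ± 1.83 (SD, n = 3), 76.6% ± 10.3 (SD, n = 2) and 80.2% ± 8.14 (SD, n = 4) on the coding transcript.

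Psat1 had 20.8% ± 5.37 (SD, n = 3) of its counts on the shorter coding transcript ENSMUST00000162053 in WT myoblasts and 38.6% ± 2.01 (SD, n = 4) in WT fused myotubes, against 20.2% ± 4.14 (SD, n = 3) and 36.5% ± 4.27 (SD, n = 4) in KO-labelled libraries. In differentiated myotubes the share was 20.5% to 21.8% in WT and 26.5% and 28.8% in KO-labelled libraries, without overlap. These transcripts were chosen after their values were seen, and the shares are estimates without a test.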
